A study of Mus musculus with 4 samples.

Results

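The genes described here encode the nuclear-encoded subunits of the mitochondrial respiratory chain and of ATP synthase. They were chosen by name alone: a non-control probe was a member where its gene name began with NDUFA, NDUFB, NDUFC, NDUFS, NDUFV, NDUFAB, UQCR, ATP5 or COX followed by a digit from 4 to 8, or was SDHA, SDHB, SDHC or SDHD. The rule found 116 probes of 79 genes among the 41000 non-control probes of the array, which carry 30729 gene names or unnamed transcripts. They fell into complex I (37 genes, 53 probes), complex II (4 genes, 9 probes), complex III (6 genes, 9 probes), complex IV (16 genes, 22 probes) and complex V (16 genes, 23 probes). The name rule also took in NDUFAF1, an assembly factor of complex I that is no subunit. NDUFA4 was kept under complex I by its name, although the protein is now assigned to cytochrome c oxidase.

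The cells were H460, an established human lung carcinoma line, so all values come from a single line. Farnesol (FOH), a sesquiterpene alcohol derived from the mevalonate pathway, was given at 250 µM for 4 h, and control cells received the vehicle, DMSO. The experiment was done in duplicate, and each farnesol RNA was hybridised with its matched vehicle RNA on a pair of two-colour Agilent arrays with the dyes exchanged, giving 4 arrays for 2 replicates. The organism field of the records reads mouse, but the cells named in the protocols are human, and so are the gene symbols on the array. A value below is the log2 of the farnesol signal divided by the vehicle signal, so that -1 stands for a halved signal, and an error is the SD of the 2 replicates after the dye-swapped arrays of each were averaged. The labels do not say how the duplicates were grown, so the spread between them may be partly technical.

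Complexes I to IV pass electrons from NADH and succinate to oxygen, and complexes I, III and IV pump protons out of the mitochondrial matrix while doing so. ATP synthase, complex V, lets the protons flow back and makes ATP. Most subunits are encoded in the nucleus and imported, while a core of complexes I, III, IV and V is encoded in mitochondrial DNA, so both sets are needed for assembly.

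Between 82.4% and 92.9% of probes were well above background in a channel, as the scanner software flags them, and 19 to 51 probes per channel were saturated, none of them a member. Of the 116 member probes, 113 or 114 were well above background in every channel. Tests were run on 28296 features, a feature being a gene represented by its brightest probe, and 78 of the 79 genes were among them. COX7B2, an isoform of a small complex IV subunit, was not well above background on any array. Of the epithelial markers fixed for the check of the cell type, 5 of 5 (KRT8, KRT18, KRT19, CDH1 and TACSTD1, now EPCAM) were above background in the vehicle channel of all 4 arrays. So were 3 of 3 lung, 3 of 4 leukocyte, 3 of 4 fibroblast and 3 of 3 endothelial markers, so the flag did not separate cell types on this array. All 5 epithelial markers had lower signals with farnesol, with mean log2 ratios from -0.65 (KRT19) to -0.20 (KRT8) and a median of -0.30, and their part in the results below was not tested. The medians of the lung, leukocyte, fibroblast and endothelial markers lay between 0.04 and 0.09. Because bulk RNA was compared, fewer cells expressing a gene and less of its RNA per cell cannot be told apart.

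Most respiratory chain genes had lower signals with farnesol, by small amounts. Of the 78 genes tested, 51 (65.4%) were lower in both replicates, where 30.2% of all features were. A further 10 (12.8%) were higher in both, where 35.4% of all features were, and 17 went in opposite directions. The counts of single complexes and gene lists below are to be read beside the same shares of all features, 30.2% lower and 35.4% higher. With each array centred on its median in place of loess, 68 (87.2%) were lower and 2 higher in both. In that setting 36.4% of all features were lower in both and 29.5% were higher. Most members were bright, and 62.1% of the brightest 20% of all features by mean signal were lower in both with median centring. On all 4 arrays, 45 genes (57.7%) were lower, against 21.9% of all features, and 5 were higher, against 20.9%. The median log2 ratio was -0.17 over the 78 genes, with -0.18 in replicate 1 and -0.12 in replicate 2, and 0.01 over all features tested. The median SD of a gene was 0.11, so the typical shift was larger than the typical spread but of the same order.

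No single member passed limma's test after Benjamini-Hochberg adjustment over all features. The test called 3 of 28296 features (0.0106%) and none of the 78 members, whose lowest adjusted p was 0.191. With 2 replicates the fit had 1 residual degree of freedom, so a missed threshold does not show that a gene was unchanged. At an unadjusted p under 0.05 in the same limma fit, 28 members (35.9%) were lower and 1 was higher, where 10.8% and 3.71% of all features were. The members below are therefore described by their values, and none is called changed. By size, 2 members, NDUFC2 and NDUFA9, were at least 2-fold lower in both replicates, where 0.24% of all features were. None was at least 2-fold higher in both, where 0.654% of all features were.

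Complex I, the NADH:ubiquinone oxidoreductase, held both of these genes. NDUFC2, an accessory subunit of the membrane arm, had log2 ratios of -1.36 and -1.43 on the arrays of replicate 1 and of -0.90 and -1.11 on those of replicate 2. NDUFA9, an accessory subunit near the joint of the matrix and membrane arms, had -1.20 and -1.21 in replicate 1 and -1.06 and -0.97 in replicate 2. All 4 arrays put both genes below every other member of the complex.

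In the scanner software's processed signal, NDUFA9 read 3507 with farnesol and 8600 with vehicle on the first array, and 2655 and 6598 with the dyes exchanged. The second replicate gave 3018 with farnesol and 6785 with vehicle, and then 2393 and 5113. The 4 farnesol readings of NDUFA9 thus all lay below the 4 vehicle readings. The mean log2 ratio of NDUFA9 was -1.11 ± 0.14 (SD, n = 2), a 2.16-fold lower signal with a limma adjusted p of 0.191, and a second NDUFA9 probe gave -1.12. NDUFC2 averaged -1.20 ± 0.28 (SD, n = 2), a 2.30-fold lower signal with the same limma adjusted p of 0.191. Its processed signals ran from 17640 to 29050 with farnesol and from 42600 to 60800 with vehicle, and these ranges did not overlap. The probes of this gene disagreed in size, since a second, dimmer NDUFC2 probe gave -0.29 and the average of both was -0.75.

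The next lowest genes of complex I were NDUFAB1, NDUFA8 and NDUFV2. NDUFAB1, the mitochondrial acyl carrier protein, had log2 ratios of -0.57, -0.58, -0.65 and -0.63 on the 4 arrays, a mean of -0.61 ± 0.04 (SD, n = 2). NDUFA8, an accessory subunit on the intermembrane face, averaged -0.58 ± 0.07 (SD, n = 2). NDUFV2, which carries an iron-sulfur cluster in the NADH-oxidising module, averaged -0.44 ± 0.12 (SD, n = 2). The 4 arrays of these genes lay close together, in contrast with the genes at the other end of the complex. NDUFAF1, the assembly factor, averaged -0.37 ± 0.21 (SD, n = 2).

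NDUFB7 and NDUFA3, accessory subunits of the membrane arm, had the highest mean log2 ratios of complex I, with a mean above 0 only in replicate 2. NDUFB7 had -0.09 and -0.13 on the arrays of replicate 1 and 0.91 and 0.61 on those of replicate 2, a mean of 0.32 ± 0.61 (SD, n = 2). A second NDUFB7 probe averaged -0.21, so the direction of this gene is not settled by its probes. NDUFA3 had 0.05 and -0.08 in replicate 1 and 0.81 and 0.48 in replicate 2, a mean of 0.32 ± 0.47 (SD, n = 2). NDUFS7, which carries the last iron-sulfur cluster before ubiquinone, averaged 0.14 ± 0.33 (SD, n = 2), and -0.06 with median centring. A second, dimmer NDUFS7 probe averaged -0.02, so the direction of NDUFS7 also depends on the probe. For each of these genes the SD exceeded the mean.

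Over complex I as a whole, 25 of 37 genes were lower in both replicates, 2 were higher and 10 went opposite ways, with a median log2 ratio of -0.17. The 2 higher genes, NDUFA1 and NDUFB1, were both at 0.07 on average. In the processing setting that put each lowest, both were at -0.16, so their direction depends on the processing. The 7 core subunits, which carry the flavin and the iron-sulfur clusters and have bacterial counterparts, had a median of -0.33, with 5 lower and none higher in both replicates. The 29 genes counted as accessory subunits, with NDUFA4 among them and NDUFAF1 left out, had a median of -0.16, with 19 lower and 2 higher. By module, the median was -0.07 over the 7 genes of the NADH-oxidising N module, -0.20 over the 8 genes of the ubiquinone-reducing Q module and -0.17 over the 20 genes of the proton-pumping P module. NDUFA4 and NDUFAF1 were placed in no module, and no test between modules was run.

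**Figure D1:**
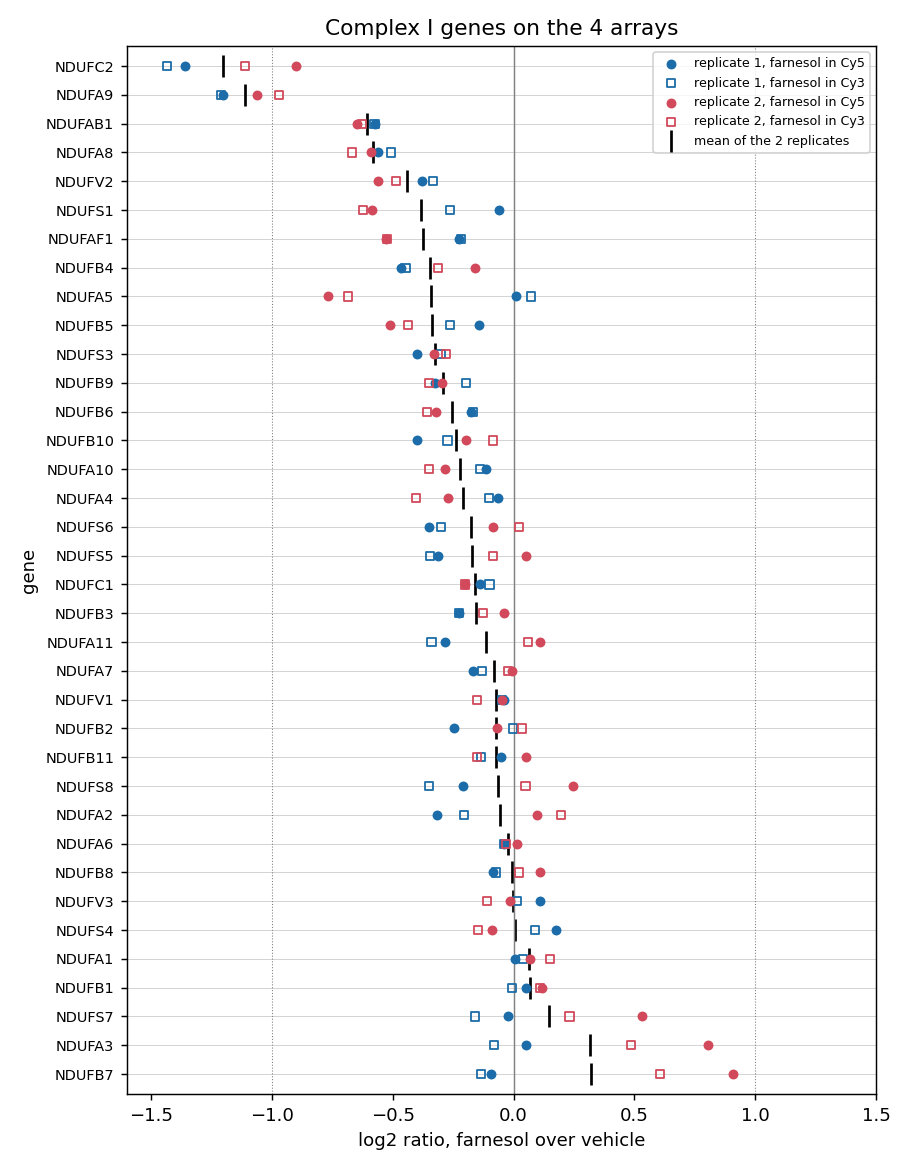
Log2 ratio of farnesol over vehicle (horizontal axis) for genes named for complex I (vertical axis), with a point for each of the 4 arrays (colour for the replicate, filled or open for the dye of the farnesol RNA) and a bar for the mean of the 2 replicates. NDUFC2 (-1.20) and NDUFA9 (-1.11) stand apart at the low end, and the replicates of NDUFB7 and NDUFA3 lie far from each other at the high end.

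All 4 genes of complex II, succinate dehydrogenase, were lower in both replicates and on all 4 arrays, with a median log2 ratio of -0.29. SDHA, the flavoprotein that oxidises succinate in the citric acid cycle, had log2 ratios of -0.54, -0.69, -0.83 and -0.92, a mean of -0.74 ± 0.18 (SD, n = 2) with a limma adjusted p of 0.197. A second, dimmer SDHA probe gave -0.21, so the size of this difference depends on the probe. The iron-sulfur subunit SDHB averaged -0.25 ± 0.09 (SD, n = 2). The membrane anchors SDHC and SDHD averaged -0.33 ± 0.04 and -0.20 ± 0.14 (SD, n = 2). The other 3 SDHD probes lay lower than the brightest one, at -0.59, -0.46 and -0.44. One further SDHC probe was well above background on too few arrays to be tested.

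In complex III, the ubiquinol:cytochrome c oxidoreductase, 4 of 6 genes were lower in both replicates and the median log2 ratio was -0.34. UQCRFS1, the Rieske iron-sulfur protein that takes electrons from ubiquinol, had -0.46 and -0.38 in replicate 1 and -0.90 and -0.94 in replicate 2. It averaged -0.67 ± 0.35 (SD, n = 2) with a limma adjusted p of 0.280. All 4 arrays were well below 0, but the replicates did not overlap. UQCRH, the hinge protein that helps bind cytochrome c1, averaged -0.38 ± 0.0096 (SD, n = 2), and the core proteins UQCRC1 and UQCRC2 averaged -0.33 ± 0.0084 and -0.35 ± 0.45 (SD, n = 2). The similar means of the core proteins hide unlike replicates, since UQCRC2 was at -0.04 in replicate 1 and at -0.67 in replicate 2. UQCRB, a small subunit next to a ubiquinone-binding site, was the 1 gene of the complex higher in both replicates, at 0.17 ± 0.11 (SD, n = 2), but its mean was -0.045 with median centring. UQCR, the smallest subunit, was at 0.02 ± 0.19 (SD, n = 2) by its brightest probe and at -0.37 by the other, and at -0.19 with median centring, so its direction is not settled by its probes.

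Complex IV, cytochrome c oxidase, had a median log2 ratio near 0, at -0.0038. Of its 15 genes tested, 6 were lower in both replicates, 5 were higher and 4 went opposite ways. No test of the difference between complexes was run. COX5A, one of the subunits present in all tissues, had the lowest mean with close replicates, at -0.33 ± 0.06 (SD, n = 2). COX7A2L, a relative of the COX7A subunits that joins complexes III and IV into supercomplexes, was at -0.05 in replicate 1 and -0.68 in replicate 2. COX6B1 showed the reverse, at -0.47 in replicate 1 and 0.01 in replicate 2, so neither of these genes has a settled difference.

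The highest mean of all members belonged to COX6A2, the heart and muscle isoform of subunit VIa. Its arrays gave 0.12 and 0.10 in replicate 1 and 1.31 and 0.93 in replicate 2, a mean of 0.61 ± 0.72 (SD, n = 2) with a limma adjusted p of 0.502. Both arrays of the second replicate lay far above 0 and above those of the first, although they differed from each other as well. A distinct band of 393 features (1.39% of those tested), singled out after the values were seen, had log2 ratios from 0 to 0.25 in replicate 1 and from 0.8 to 1.3 in replicate 2. COX6A2 was the only member in it, 93.9% of the band lay in the brightest 20% of all features, and its part in the value of COX6A2 was not tested. The ubiquitous isoform COX6A1 averaged -0.04 ± 0.0080 (SD, n = 2). The other high genes of the complex were COX6C at 0.11 ± 0.12 and the testis isoform COX6B2 at 0.10 ± 0.0085 (SD, n = 2). With each array centred on its median in place of loess, COX6C was at -0.11 and COX6B2 at -0.12, so their direction depends on the scaling.

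Complex V, the ATP synthase, had 12 of 16 genes lower in both replicates, 2 higher and 2 in opposite directions, with a median log2 ratio of -0.25. ATP5A1, the alpha subunit of the catalytic head, had log2 ratios from -1.05 to -0.91 over the 4 arrays. ATP5F1, subunit b of the peripheral stalk that holds the head still, had -0.97, -1.01, -0.94 and -1.01. The 4 arrays of each gene lay within a narrow range close to -1, and the replicate means nearly coincided. The means were -0.98 ± 0.0019 for ATP5A1, a 1.97-fold lower signal, and -0.98 ± 0.01 for ATP5F1 (SD, n = 2), each with a limma adjusted p of 0.191. Both thus lay just outside the 2-fold mark that NDUFC2 and NDUFA9 passed.

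In the catalytic head, ATP5B, the beta subunit that carries the active sites, averaged -0.59 ± 0.33, and ATP5C1, the gamma subunit that turns inside the head, averaged -0.49 ± 0.16 (SD, n = 2). ATP5D, the delta subunit of the rotor, went opposite ways, at -0.34 in replicate 1 and 0.28 in replicate 2. ATP5E, the epsilon subunit beside it, was the only member of the chain that was higher with an unadjusted limma p under 0.05. Its arrays gave 0.16, 0.23, 0.29 and 0.30, a mean of 0.25 ± 0.07 (SD, n = 2) with a limma adjusted p of 0.294, and a second ATP5E probe gave 0.26. The head therefore held both the low alpha, beta and gamma subunits and the high epsilon subunit, with a median of -0.49 over its 5 genes.

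The membrane part and stalks were more uniform: 9 of their 10 genes were lower in both replicates, with a median of -0.25. ATP5G1, ATP5G2 and ATP5G3, which encode the same mature ring subunit c behind different import sequences, averaged -0.43 ± 0.11, -0.34 ± 0.04 and -0.63 ± 0.15 (SD, n = 2). ATP5O, the stalk protein that gives oligomycin sensitivity, averaged -0.38 ± 0.08 (SD, n = 2). The small membrane subunits lay nearer to 0, with ATP5L (subunit g) at -0.16 ± 0.10 (SD, n = 2). For ATP5L, 1 array of replicate 2 was left out because the scanner software marked its spot as an outlier. ATP5I (subunit e) was the exception of the group, at -0.09 in replicate 1 and 0.27 in replicate 2, with a mean of 0.09 that became -0.13 with median centring. ATP5S, a factor associated with the enzyme (factor B), averaged 0.09 ± 0.10 (SD, n = 2), and -0.02 with median centring.

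**Figure D2:**
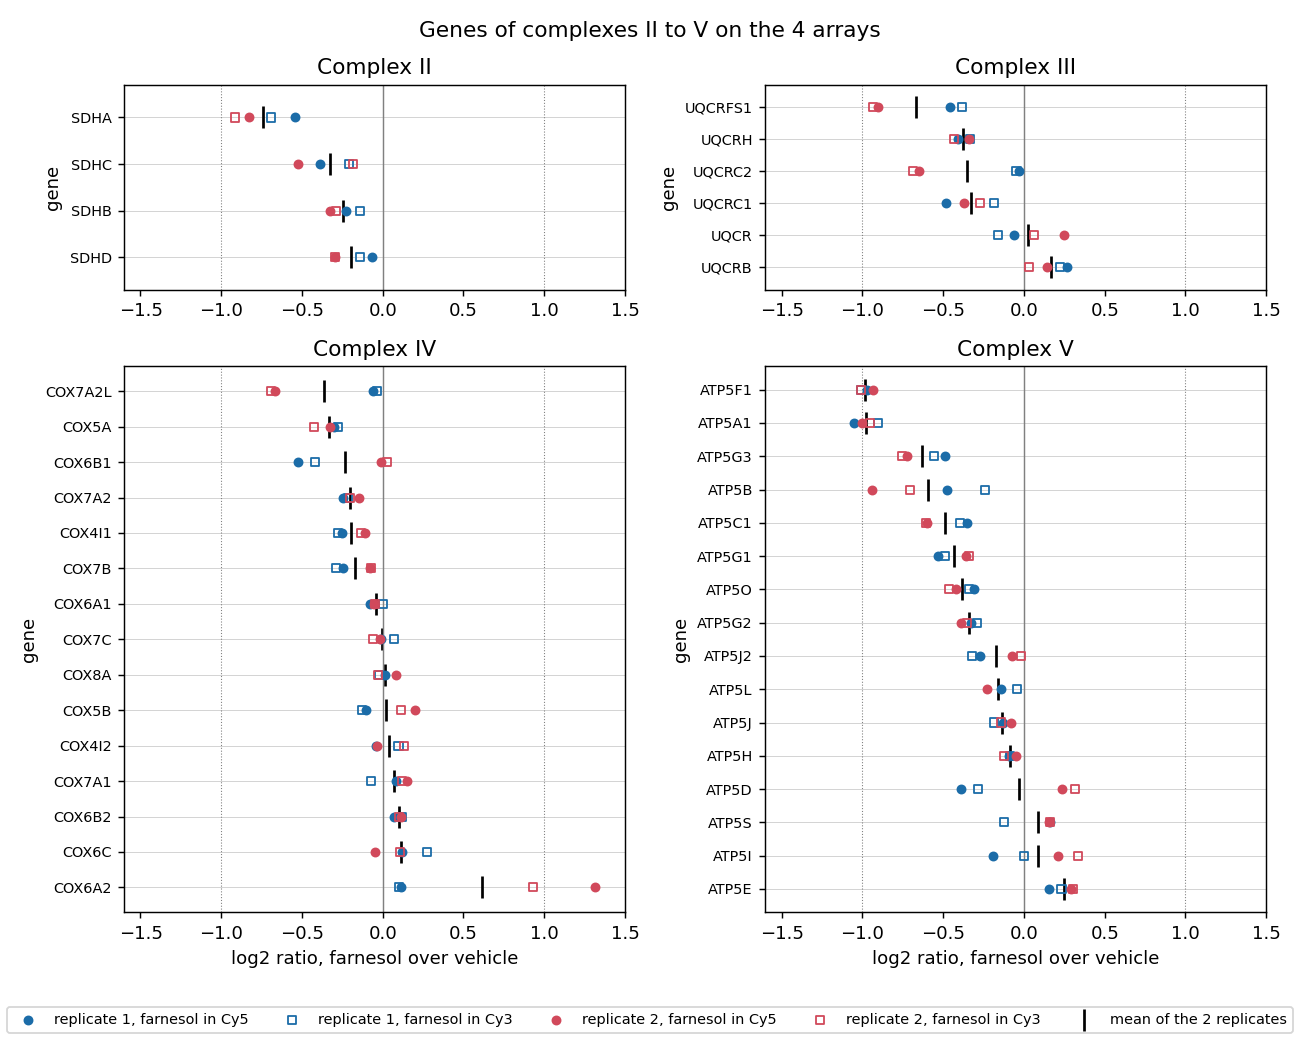
Log2 ratio of farnesol over vehicle (horizontal axes) for the genes of complexes II, III, IV and V (vertical axes), with a point for each array and a bar for the mean of the 2 replicates. All 4 genes of complex II lie below 0, ATP5F1 and ATP5A1 lie near -1 on every array used, and COX6A2 has its replicate 1 arrays near 0.1 and its replicate 2 arrays at 0.93 and 1.31.

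The replicates matched less well than the arrays within a replicate. Across the 78 genes, which are not independent replicates, Pearson's r between replicates was 0.647, where it was 0.680 across all features. Between the dye-swapped arrays of 1 replicate it was 0.939 and 0.962. The replicates differed by over 0.5 on the log2 scale for 8 members (10.3%), where 8.91% of all features and 23.9% of the brightest 20% did. In 4 of these, NDUFB7, NDUFA3, COX6A2 and ATP5D, replicate 2 was the higher, and in the other 4, NDUFA5, UQCRFS1, UQCRC2 and COX7A2L, it was the lower. Members with a large mean difference and close replicates were few: NDUFA9, ATP5F1, ATP5A1, NDUFAB1 and NDUFA8 lay below -0.5 with an SD of 0.14 or less.

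**Figure D3:**
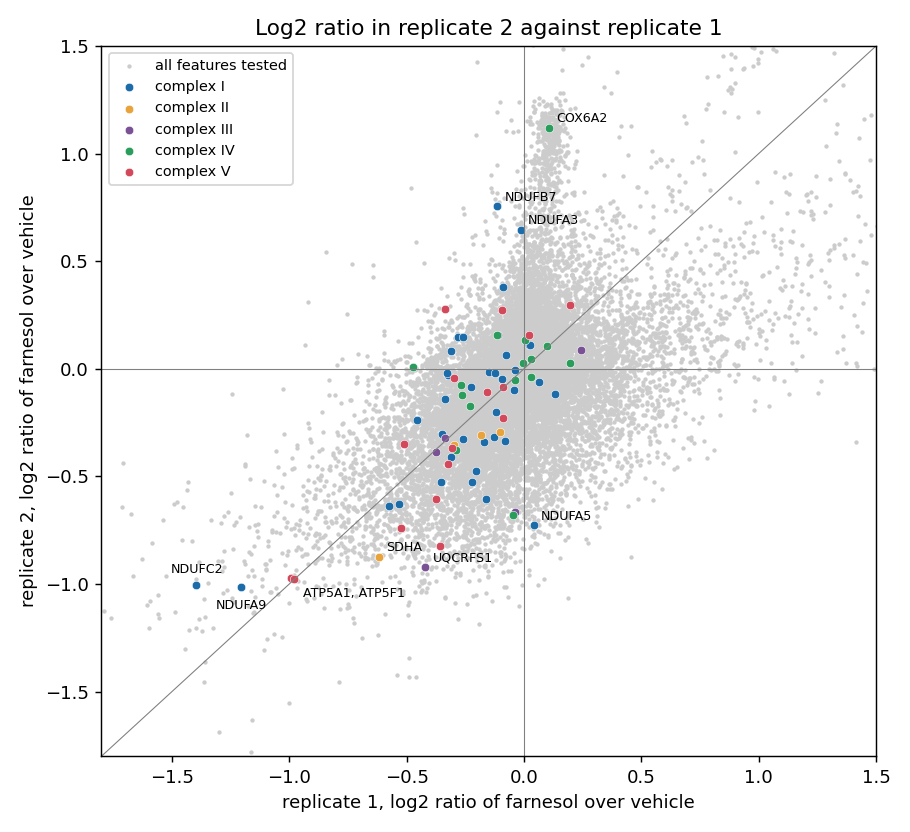
Log2 ratio in replicate 1 (horizontal axis) against replicate 2 (vertical axis) for the 78 genes tested, each point the mean of 2 dye-swapped arrays, over the features tested as a grey background (features beyond the axes are not drawn). Most members lie below 0 in both replicates, NDUFC2 and NDUFA9 lie beyond -1 in both, and COX6A2 lies inside a grey band near 0.11 in replicate 1 and 1.05 in replicate 2.

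The members were mostly bright probes. Of the 78 genes, 70 lay in the brightest 20% of all features by mean signal. Within it the median log2 ratio of all features was -0.03, and 40.7% were lower in both replicates, compared with 46 of the 70 members (65.7%). Scaling moved both together: with each array centred on its median in place of a signal-dependent loess curve, the median was -0.39 for the members and -0.23 for the brightest 20%. With the scanner software's own processed signals these medians were -0.15 and 0.01. The members thus lay below the brightest 20% by a similar distance under each scaling, while their distance from 0 depended on it. Under the 9 settings with a test, 54 members were below 0 in every one, and 6 were above 0 in every one: NDUFA3, NDUFB7, COX4I2, COX7A1, COX6A2 and ATP5E. The same shares of all features were not counted, and several of these settings leave a gene's ratio as it is. In replicate 1 alone, which has no test, NDUFA3 and NDUFB7 were below 0, at -0.01 and -0.11.

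**Figure D4:**
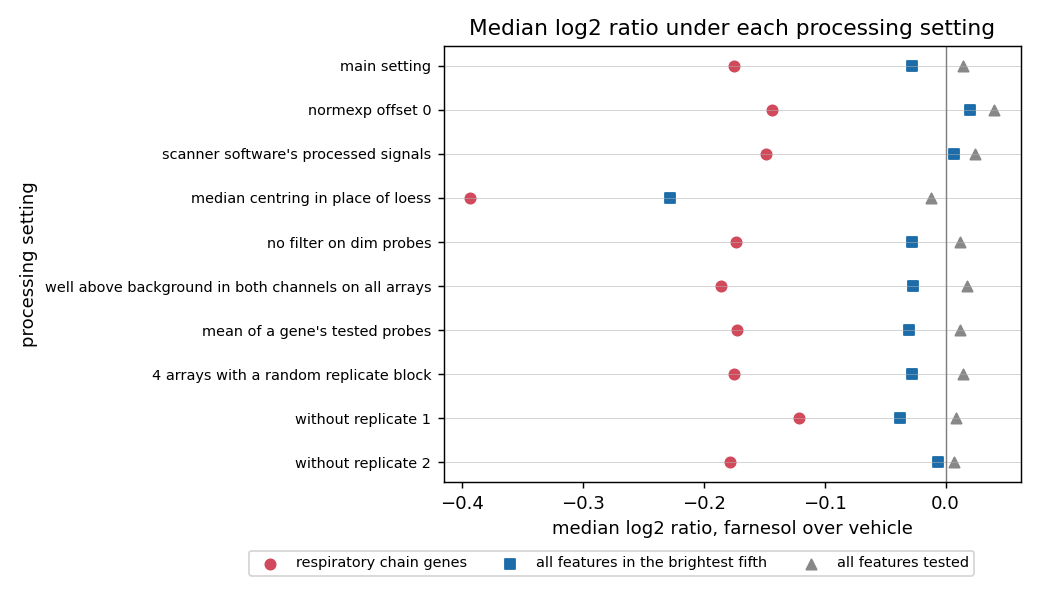
Median log2 ratio of farnesol over vehicle (horizontal axis) under each processing setting (vertical axis) for the respiratory chain genes, for all features in the brightest 20% and for all features tested. The members lie to the left of the brightest 20% in each setting, and median centring moves them from -0.17 to -0.39.

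Calls depended on how the arrays were counted. When the 4 arrays entered the limma fit singly, with the replicate as a random block (estimated correlation 0.55), 22 members (28.2%) had an adjusted p under 0.05, where 10.1% of all features did. Of these, 21 were lower and 1, ATP5E, was higher, and the lowest adjusted p was 0.000743. Among the called genes were NDUFC2, NDUFA9, NDUFAB1, NDUFA8 and NDUFV2 of complex I, SDHA, UQCRFS1 and UQCRH, COX5A, and ATP5A1, ATP5F1, ATP5G3, ATP5C1 and ATP5E. This fit takes part of its precision from technical repeats of the same RNA, so it is given beside the replicate fit and not in its place.

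The authors' deposited table, a list of probes with a p of at most 0.001 for replicate 1, held 7018 probes, 17.1% of the array. Of the 116 member probes, 44 (37.9%) were on it. As the authors' deposited table gives them, 43 of these, from 34 genes, were lower with farnesol and 1, of UQCRB, was higher. Probes listed as lower made up 37.1% of member probes and 9.89% of all probes. The table rests on the same replicate 1 arrays as the values above and so is no independent measurement. Its log ratio had a correlation of 0.9999 across probes with the scanner software's own log ratio of replicate 1. The values above were processed otherwise and differ more: the dimmer UQCR probe was at -0.88 in the authors' deposited table and at -0.54 in replicate 1 here.

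Other genes of oxidative metabolism were taken from 4 textbook lists, and limma called none of their genes. Of 30 further chain genes and assembly factors, 21 were tested, 12 were lower and 2 higher in both replicates, and the median log2 ratio was -0.17. Among them CYC1, cytochrome c1 of complex III, averaged -0.39 ± 0.23, and BCS1L, which inserts the Rieske protein, averaged -0.48 ± 0.02 (SD, n = 2). OXA1L, which inserts proteins into the inner membrane, averaged -0.38 ± 0.03 (SD, n = 2). In contrast, COX17 was higher in both replicates, at 0.15 ± 0.12 (SD, n = 2). CYCS went opposite ways, at 0.32 in replicate 1 and -0.37 in replicate 2, as did LRPPRC, at 0.29 and -0.59. Of 17 genes of the citric acid cycle and pyruvate dehydrogenase, 11 were lower and 3 higher in both replicates, with a median of -0.14. FH, fumarase, which acts directly after succinate dehydrogenase, averaged -0.79 ± 0.08 (SD, n = 2). PDHA1, a subunit of pyruvate dehydrogenase, averaged -0.58 ± 0.17, while DLAT of the same complex averaged 0.35 ± 0.33 (SD, n = 2).

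Transcription factors and coactivators of respiratory genes were mixed. Of 12, 11 were tested. In both replicates 5 (45.5%) were lower and 3 (27.3%) higher, where 30.2% and 35.4% of all features were. The median log2 ratio was 0.0044 while the mean was -0.23. That median was -0.17 when the probes of a gene were averaged and -0.12 with median centring, so it depends on the processing. The gap between median and mean came from the mitochondrial transcription factors TFB2M, at -1.68 ± 0.56, and TFB1M, at -0.74 ± 0.22 (SD, n = 2). TFB2M helps the mitochondrial RNA polymerase start transcription, and it was the only gene of the list at least 2-fold lower in both replicates. YY1, ESRRA and PPARGC1B were also lower in both replicates, averaging -0.27 ± 0.07, -0.25 ± 0.12 and -0.17 ± 0.06 (SD, n = 2). TFAM, which packages mitochondrial DNA, was at 0.06 ± 0.06, and NRF1, a nuclear activator of respiratory genes, at 0.0044 ± 0.0017 (SD, n = 2). PPARGC1A, a coactivator, averaged 0.16 ± 0.25 (SD, n = 2) and went opposite ways in the replicates.

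Mitochondrially encoded respiratory genes had lower values than the nuclear-encoded members. Of 13, 8 had a probe, 5 were lower in both replicates and none was higher, and the median log2 ratio was -0.97, with -0.57 in replicate 1 and -1.30 in replicate 2. MTND6 and MTND3, core membrane subunits of complex I, averaged -1.87 ± 0.35 and -1.63 ± 0.72 (SD, n = 2) and were at least 2-fold lower in both replicates. MTCO1, the catalytic subunit of complex IV, averaged -1.27 ± 0.87, and MTCYB, cytochrome b of complex III, averaged -1.12 ± 0.47 (SD, n = 2). The low value of MTCO1 stood beside a median near 0 for the nuclear-encoded genes of the same complex. MTND2 went opposite ways, at 0.37 in replicate 1 and -0.37 in replicate 2. So did MTND4, at 0.19 and -0.78, and MTND5, at 0.10 and -0.69, so the 8 genes were not uniform either. The difference between mitochondrially and nuclear-encoded genes was not tested.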

How the data were processed

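Total RNA of the H460 cells was amplified, labelled with Cy3 or Cy5 and hybridised to two-colour Agilent arrays, per the labels' protocols. The authors' deposited intensity values are scanner mean and background signals per spot from Agilent Feature Extraction (8.1.1.1, per the file headers). The authors' deposited list gives log10 ratios, linear ratios (fold) and p-values for replicate 1. The deposited flag columns mark spots above background, saturated or outlying. The annotation build is not given in the sources used here.

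From the intensities, background was corrected with normexp (offset 50) and dyes were balanced by loess in limma 3.58.1 (R 4.3.3), with control and outlying spots at weight 0. Ratios were turned to farnesol over vehicle, spots of a probe and then the dye-swapped arrays of a replicate were averaged (n = 2), and the mean was tested against 0 with eBayes (prior degrees of freedom 1.81), adjusting by Benjamini-Hochberg over 28296 features at 0.05. A probe was tested if well above background in the channel of the same condition on at least 1 array of each replicate, and the brightest tested probe stood for a gene. The fit was tested on simulated data: it returned the simulated fold changes on average, but no changed gene passed the adjusted threshold there. The simulated SDs were drawn from the observed differences between the 2 replicates, so their spread need not match that of the data. The simulation therefore does not show what the fit could call in the data. The number of replicates and arrays limits the precision.

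Named were the 3 lowest and 3 highest genes of each complex, members past 2-fold or called, members not tested and members that are no subunit. Further members and genes of other lists were chosen after their values were seen. The members and lists were chosen with earlier results of these data known. The division of complex I into core and accessory genes was added after the files were seen. Alternatives covered background correction, normalization, filters, probe choice, arrays as units and each replicate alone. Values of 1 member are not reported here by name.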

Additional observations from a re-analysis of the deposited data

How the results depend on the processing

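Of 486 comparisons of a result with an alternative setting, 399 stayed within the spread between replicates or, for counts, within 1.5 times, and 87 moved. Many could not move: for a single gene, leaving out a replicate shifts the value by less than the SD of its replicates. The Aquantile, filter and random block settings left the ratios of the named genes as they were. The 399 is therefore no measure of stability. No member or list value was called by limma, so none could count as reversed. Of 400 comparisons of log2 values, called or not, 23 had another sign than the main setting, all for values of at most 0.32 in size. They include the genes NDUFS7, UQCR, UQCRB, COX6B2, COX6C, ATP5S and ATP5I under median centring, and the medians of complex IV and the regulators under several settings each. Features called by limma over the whole array numbered 3, and 73 with a normexp offset of 0, 62 with the scanner software's processed signals, 25 with median centring and 2869 with 4 arrays and a random replicate block. Members called numbered 22 with that replicate block, which pairs the arrays of each replicate, and 0 in every other setting with a test, where the lowest adjusted p ranged from 0.0655 (median centring) to 0.196 (no filter). Members at least 2-fold lower in both replicates, which are also all those at least 2-fold either way, numbered 1 with offset 0, processed signals or the mean of a gene's probes (NDUFA9 each time), and 4 with median centring (with ATP5F1 and ATP5A1). The shares of all features at least 2-fold lower in both were 0.421%, 0.534%, 0.18% and 0.481% in these settings, in that order. In the main setting the share was 0.24%. Members higher in both replicates numbered 2 with median centring. With a single replicate left only its own direction counts. Then 14 members were higher in replicate 1 and 23 in replicate 2, where 52.9% and 52.4% of all features were. Median centring gave medians of -0.39 for the members, -0.37, -0.46, -0.56, -0.20 and -0.47 for complexes I to V, -0.36 for further chain genes and assembly factors, -0.28 for the citric acid cycle and -0.12 for the regulators. Offset 0 gave -0.14 for complex I and -0.22 for complex V, processed signals -0.22 for complex V, the filter asking for all arrays -0.27 for complex V, and the mean of probes -0.37 for complex II and -0.17 for the regulators. Without replicate 1 or replicate 2 there is no test. Medians from replicate 1 alone, and then from replicate 2 alone, were -0.18 and -0.12 for the members, -0.17 and -0.12 for complex I, -0.24 and -0.33 for complex II, -0.22 and -0.35 for complex III, -0.039 and 0.010 for complex IV, -0.32 and -0.29 for complex V, -0.18 and -0.23 for further chain genes and assembly factors, -0.12 and -0.26 for the citric acid cycle, 0.0032 and -0.025 for the regulators and -0.57 and -1.30 for the mitochondrially encoded genes. Aquantile normalization between arrays leaves the ratios as they are. The planned fit with a dye term and a random block was not run, since its correlation could not be estimated from 4 arrays. No paired analysis beyond this was possible because each array already holds the matched farnesol and vehicle RNA of 1 replicate. With 2 replicates, small differences are not resolved for single genes, and probes of a gene differed by up to 0.91.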
